A study of Homo sapiens with 5 samples.

Results

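The 10 genes described here make up the INK4 locus on chromosome 9 and the control of the G1 phase of the cell cycle around it: CDKN2A, CDKN2B, CDKN2B-AS1, MTAP, RB1, CCND1, CCNE1, CDK4, CDK6 and CDKN1B. They were taken by name, and each gene was measured as the sum of the reads on every transcript that GENCODE v44 assigns to it. They are 10 of 61220 genes with listed transcripts, and 105 of the 224076 transcripts paired with a gene belong to them. Reads were found on 76 of these 105 transcripts.

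The RNA came from NCI-H1975 and HCC827, both established lines of human lung adenocarcinoma, grown as bulk cultures without a drug or gene edit, per the labels. One RNA preparation of each line was used, and the labels assign synthetic sequin transcripts of mix A to NCI-H1975 and of mix B to HCC827. The 0:100 library held 0 sequin reads and the 100:0 library 5475, so the counts go against the label for HCC827. Sequin reads are part of the library totals used in scaling, 5475 of 2932250 reads in the 100:0 library. No sequin is among the genes tested. The preparations were mixed so that HCC827 supplied none, 25, 50, 75 or 100% of the RNA mass, and each mixture gave 1 nanopore cDNA library. Libraries are named by NCI-H1975 share and HCC827 share, so 100:0 is pure NCI-H1975 and 0:100 is pure HCC827. A ratio has no replicate, so p-values compare 2 RNA preparations and do not cover differences between cultures. In bulk RNA, fewer cells that use a gene and less of its RNA per cell cannot be told apart.

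Entry into S phase is gated by the retinoblastoma protein RB1, which holds back E2F transcription factors until kinases phosphorylate it. D-type cyclins such as CCND1 activate CDK4 and CDK6 for this step, and CCNE1 with its kinase CDK2 completes it. The INK4 proteins, p16INK4a from CDKN2A and p15INK4b from CDKN2B, bind CDK4 and CDK6 and block them, and CDKN1B (p27KIP1) blocks mainly cyclin E complexes. CDKN2A also encodes p14ARF, which binds and inhibits the ubiquitin ligase MDM2. MTAP, the gene beside CDKN2A, encodes an enzyme that recycles methionine from methylthioadenosine and is often deleted together with CDKN2A in tumours.

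The libraries held between 2932250 and 4058751 reads, and 13492 genes had at least 10 reads in at least 2 libraries, the 10 members among them. The mean transcript length per read fell from 2579 bases in the 100:0 library to 2180 bases in the 0:100 library, and its part in the results was not tested. Levels are given in CPM (read counts scaled to a common library size) after TMM scaling, which evens out differences in RNA composition between libraries. All 6 epithelial markers were detected in every library, with summed levels of 6454 to 13730 CPM by library total. The lung adenocarcinoma markers NKX2-1, NAPSA and SFTPB summed to 50.5 to 323 CPM by library total. In the 100:0 library they had 140, 7 and 1 reads, and in the 0:100 library 295, 690 and 14. Of the fibroblast markers, COL1A1 (1573 reads in all) and COL1A2 (256 reads) ran from 532 and 96 reads in the 100:0 library to 19 and 0 in the 0:100 library, while LUM had 8 reads in all and DCN 0. The immune markers PTPRC, CD3E and LYZ were at 0 in every library, and the 3 endothelial markers had 18 reads in all 5 libraries together, made up of PECAM1 with 10, VWF with 6 and CDH5 with 2. The part of the fibroblast markers in the results was not tested.

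CDKN2A (ENSG00000147889, GRCh38 chr9:21967752-21995301, minus strand) makes its 2 proteins from separate first exons spliced to a common second exon. The transcript of p16INK4a, CDKN2A-201, begins with exon 1-alpha at chr9:21974678-21974857 (180 bases). The transcript of p14ARF, CDKN2A-214, begins with exon 1-beta at chr9:21994139-21994392 (254 bases). Both continue into the same exon 2 at chr9:21970902-21971208, which codes in a different reading frame in each. The reads of the 2 forms are told apart by the first exon alone. Exon 1-alpha holds 150 coding bases and ends on a whole codon, so exon 2 starts a new one. Exon 1-beta holds 193 coding bases, and the first 2 bases of exon 2 finish its last codon. The reading frames lead to proteins of 156 and 132 residues.

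CDKN2A was far more abundant in HCC827 RNA than in NCI-H1975 RNA. It had 197, 987, 1523, 1823 and 2052 reads from the 100:0 to the 0:100 library, or 58.0, 229, 391, 637 and 763 CPM. The level climbed at every step, and the 95% Poisson intervals of neighbouring libraries did not overlap at any of the steps. The pure HCC827 library stood 13.1-fold above the pure NCI-H1975 library (95% interval 11.4 to 15.3, counting error only). The 3 mixtures lay 24.2, 47.2 and 82.2% of the way between the pure libraries, beside HCC827 mass shares of 25, 50 and 75%. The fitted slope, the log2 change from no HCC827 RNA to all HCC827 RNA, was 3.36 ± 0.38 (SE), with an adjusted p of 2.37e-05 in the edgeR quasi-likelihood test. Because a mixture is linear in CPM and curved in its logarithm, the slope of a steep gene lies below the log2 of the pure ratio.

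**Figure D1:**
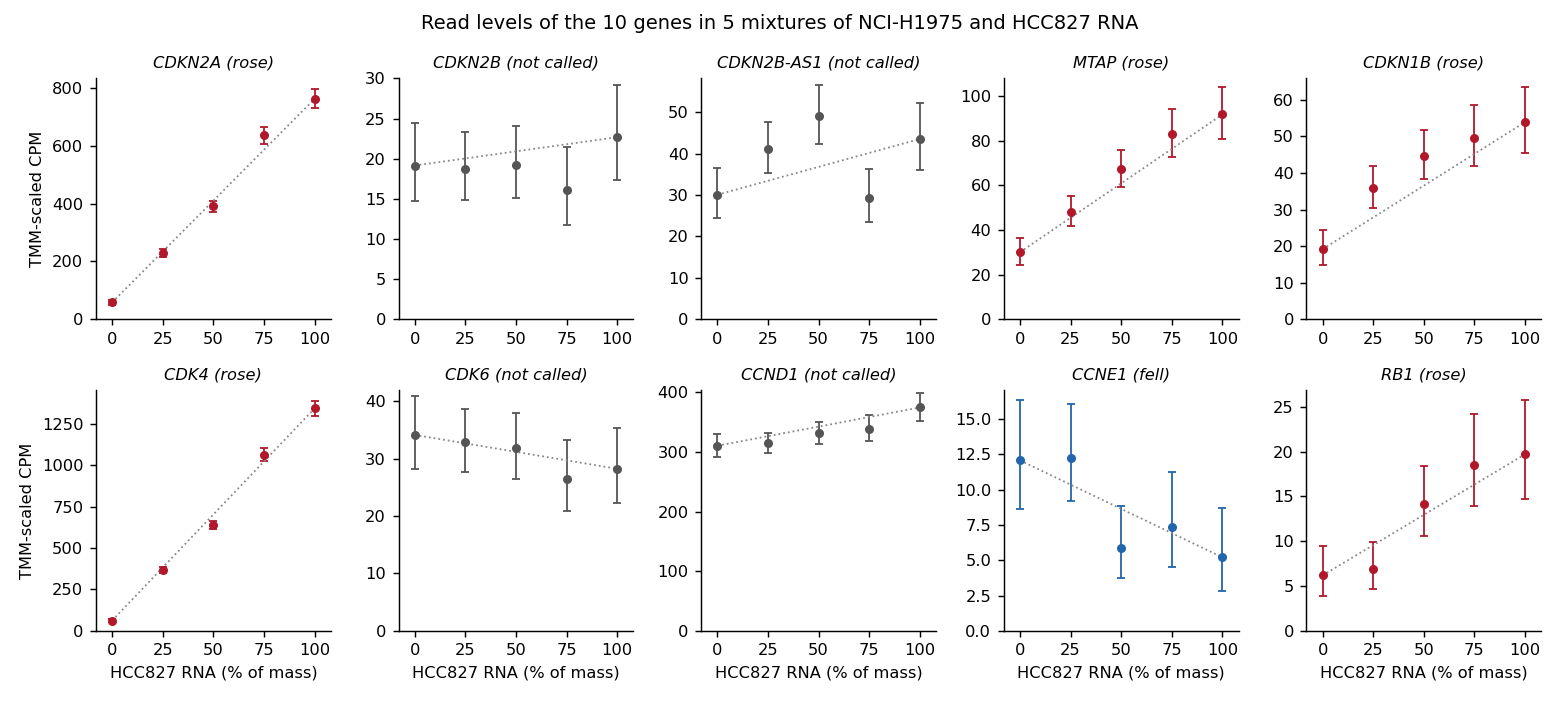
Level of each of the 10 genes (TMM-scaled CPM, linear axis) against the HCC827 share of the RNA mass (%) in the 5 libraries; points are single libraries, bars are exact 95% Poisson intervals, and the dotted line joins the pure libraries. CDKN2A rises from 58.0 to 763 CPM and CDK4 from 61.9 to 1344 CPM close to their dotted lines, whereas CDKN2B stays between 16.1 and 22.7 CPM.

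Both CDKN2A forms rose together. The p16INK4a class, 4 transcripts that use exon 1-alpha, had 110, 572, 857, 984 and 1160 reads, or 32.4, 132, 220, 344 and 431 CPM. The p14ARF class, 2 transcripts that use exon 1-beta, had 86, 409, 658, 821 and 881 reads, or 25.3, 94.8, 169, 287 and 328 CPM. Each class increased at every step. The pure-library ratio was 13.3-fold for p16INK4a (10.9 to 16.3) and 12.9-fold for p14ARF (10.3 to 16.3), and the intervals overlapped nearly in full. Slopes were 3.23 ± 0.37 (adjusted p = 2.4e-05, edgeR) and 3.28 ± 0.35 (adjusted p = 1.6e-05, edgeR), in a table in which 23.5% of 13494 rows rose.

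No trend in the balance between the forms passed the test. Of all CDKN2A reads, p14ARF took 43.7% (95% Wilson interval 36.9 to 50.6), 41.4% (38.4 to 44.5), 43.2% (40.7 to 45.7), 45.04% (42.8 to 47.3) and 42.9% (40.8 to 45.1) from 100:0 to 0:100. Every interval overlapped every other. The deposited counts are estimates, and how many reads reach the first exon is not given in the sources used here. The intervals therefore leave out errors in dividing reads between the forms. The fitted trend was 0.862 percentage points over the series (two-sided exact permutation test over 120 orders, p = 0.75, where the smallest p the design allows is 0.0167), and its sign turned to -0.052 points without the 75:25 library and to -0.033 points without the 25:75 library. The share of p16INK4a ran between 54.0 and 57.9%, with p = 0.70 in the same exact test. With 197 CDKN2A reads in the 100:0 library, a difference in balance inside that library's interval was not detectable.

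**Figure D2:**
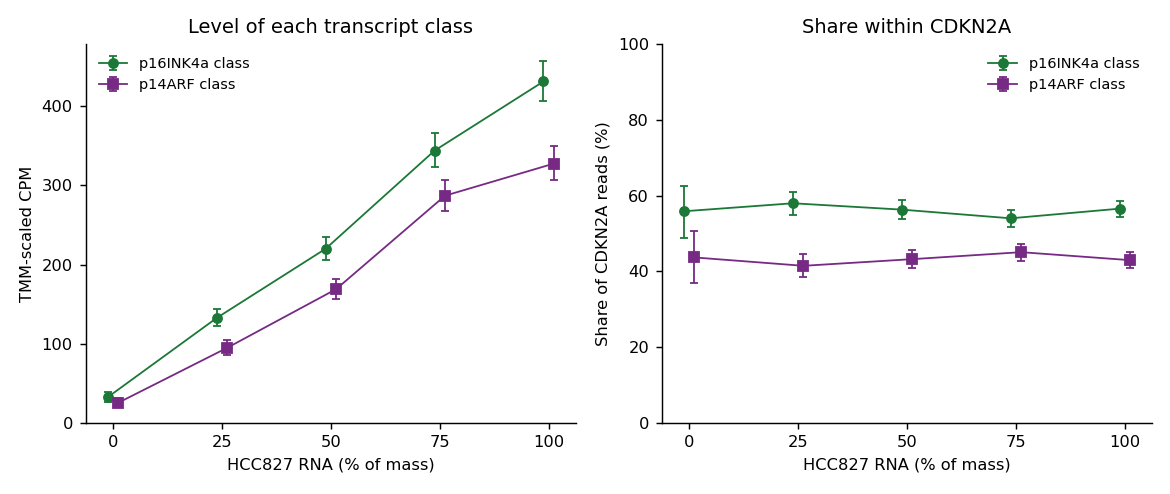
CDKN2A reads by first exon against the HCC827 share of the RNA mass (%): level of the p16INK4a and p14ARF classes in CPM with exact 95% Poisson intervals (left), and share of CDKN2A reads in percent with 95% Wilson intervals (right), 1 library per point. Both classes climb at every step while the p14ARF share stays between 41.4 and 45.04%.

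Single transcripts repeat the classes that they make up and are no separate support. CDKN2A-214 held 2847 of the 2855 reads of the p14ARF class. CDKN2A-201, the standard p16INK4a messenger, had 90, 439, 638, 744 and 879 reads and a slope of 3.10 ± 0.30 (adjusted p = 6.1e-07, edgeR on transcripts). CDKN2A-214, the standard p14ARF messenger, had 84, 408, 657, 819 and 879 reads and a slope of 3.28 ± 0.32 (adjusted p = 6.2e-07). These 2 share 798 bases, so only 180 and 254 bases separate them, all in the first exon of the v44 models. Their deposited lengths, 1218 and 1283 bases, differ from the 978 and 1052 bases of v44, so the models that the reads were counted on may differ in how many bases they share. CDKN2A-213, another exon 1-alpha transcript, had 20, 133, 219, 236 and 279 reads (slope 3.05 ± 0.34). It shares 665 of its 666 bases with CDKN2A-201, and how reads that fit both were divided is not given in the sources used here.

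The remaining CDKN2A transcripts were rare. CDKN2A-212, which has neither first exon, had 1, 5, 6, 11 and 11 reads and a slope of 2.98 ± 0.82 (adjusted p = 0.0084, edgeR). CDKN2A-210, the second p14ARF transcript, had 1 or 2 reads in each library. CDKN2A-203, CDKN2A-204, CDKN2A-205, CDKN2A-206, CDKN2A-208, CDKN2A-209 and CDKN2A-211 had at most 4 reads in any library. The 8 transcripts of neither class summed to 1, 6, 8, 18 and 11 reads, with a slope of 3.02 ± 0.86 (adjusted p = 0.012, edgeR).

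The other genes of the locus did not follow CDKN2A as a block. MTAP (chr9:21802636-21937651, plus strand) had 102, 208, 262, 238 and 247 reads, or 30.1, 48.2, 67.2, 83.2 and 91.8 CPM. It rose at every step and was 3.06-fold higher in HCC827 (2.42 to 3.89), with a slope of 1.54 ± 0.19 (adjusted p = 3.9e-05, edgeR). Neighbouring intervals overlapped at 2 of the 4 steps. Its main coding transcript MTAP-213 had 56, 118, 134, 124 and 128 reads (slope 1.35). MTAP-201, annotated as a target of nonsense-mediated decay, had 30, 62, 85, 87 and 87 reads (slope 1.77). MTAP-209 had 12, 17, 29, 11 and 14 reads and was not called (slope 0.39 ± 0.53, adjusted p = 0.61).

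CDKN2B (chr9:22002903-22009305, minus strand), which encodes p15INK4b, had 65, 81, 75, 46 and 61 reads, or 19.1, 18.8, 19.3, 16.1 and 22.7 CPM. Neighbouring libraries overlapped at all 4 steps and the pure libraries overlapped too. The ratio was 1.19 (0.821 to 1.71), and its upper bound lies below the lower bounds of CDKN2A and MTAP. The slope of 0.12 ± 0.27 was not called (adjusted p = 0.74, edgeR), and its sign turned without the 0:100 library (-0.26) and with plain library totals (-0.29). The transcript CDKN2B-201 carried 62, 74, 68, 46 and 56 of these reads.

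CDKN2B-AS1 (chr9:21994139-22128103, plus strand), also called ANRIL, is a long noncoding RNA read from the opposite strand across the locus. It had 102, 177, 191, 84 and 117 reads, or 30.1, 41.0, 49.0, 29.4 and 43.5 CPM, with the highest value in the 50:50 library and the lowest in the 25:75 library. The ratio of the pure libraries was 1.45 (1.10 to 1.91), and the slope of 0.24 ± 0.29 was not called (adjusted p = 0.53, edgeR). Its sign turned without the 100:0 library (-0.17) and with library totals (-0.17). CDKN2B-AS1-224 held most of the reads, with 95, 164, 183, 76 and 113. Exons of CDKN2B-AS1 and CDKN2A overlap on opposite strands over 593 bases. Whether the counting used strand is not given in the sources used here, so some reads of this stretch may be assigned to the wrong gene. In v44, CDKN2B-AS1-224 starts at 21994550, beyond the 5′ ends of CDKN2A-214 (21994392) and CDKN2A-201 (21974857), so these main transcripts share no bases with it.

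Ratios of reads within a library do not depend on scaling, and they separated CDKN2A from its neighbours. They are not corrected for transcript length, so their change along the series is what can be read. CDKN2A reads per CDKN2B read were 3.03, 12.2, 20.3, 39.6 and 33.6 from 100:0 to 0:100 (p = 0.0333, adjusted over 7 gene pairs 0.0467, two-sided exact permutation test over 120 orders). Per CDKN2B-AS1 read they were 1.93, 5.58, 7.97, 21.7 and 17.5 (exact p = 0.0333, adjusted 0.0467). Per MTAP read they were 1.93, 4.75, 5.81, 7.66 and 8.31 (exact p = 0.0167, adjusted 0.0389). MTAP reads per CDKN2B read were 1.57, 2.57, 3.49, 5.17 and 4.05, and this trend missed the threshold (exact p = 0.05, adjusted 0.0583). CDKN2A reads rose relative to those of all 3 neighbours. These ratios were chosen after the data had been seen and restate the slopes of the same counts. Their p-values are therefore no separate support.

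Across 500 kb on either side of CDKN2A, 5 of the 22 annotated genes had enough reads. MTAP alone was called, where 45.8% of all genes were. CDKN2B and CDKN2B-AS1 were not, nor was MIR31HG, the host of miR-31, with 19, 13, 22, 15 and 7 reads (slope -0.43 ± 0.62, adjusted p = 0.60, edgeR). DMRTA1, a DM-domain transcription factor gene, had 12, 12, 8, 12 and 4 reads (slope -0.53 ± 0.74, adjusted p = 0.58). Without the 0:100 library both slopes changed sign, to 0.22 for MIR31HG and 0.14 for DMRTA1.

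The p16INK4a promoter is shown because its messenger rose. The line gives the 250 bases before the start site in RefSeq on GRCh38.p14 (chr9:21974858-21975107, minus strand, 5′ to 3′), and 66.8% of them are G or C. The start site is also the first base of exon 1-alpha in GENCODE v44. The window holds neither the E box CACGTG nor any of the E2F-type words TTTCCCGC, TTTCGCGC, TTTGGCGC and TTTGCCGC, searched on both strands, so no letter is in capitals.
CDKN2A p16INK4a promoter: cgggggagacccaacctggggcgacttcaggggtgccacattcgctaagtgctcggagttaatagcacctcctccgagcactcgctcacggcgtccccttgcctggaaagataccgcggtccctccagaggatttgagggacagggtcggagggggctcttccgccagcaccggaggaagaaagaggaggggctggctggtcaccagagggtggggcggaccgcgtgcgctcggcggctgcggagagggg

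CDK4 (chr12:57747727-57756013, minus strand), the catalytic partner of D-type cyclins and a target of p16INK4a, had the steepest slope of the 10 genes. It had 210, 1595, 2492, 3046 and 3615 reads, or 61.9, 370, 640, 1065 and 1344 CPM. No neighbouring intervals overlapped, and the mixtures lay 24.0, 45.1 and 78.2% of the way between the pure libraries. HCC827 stood 21.7-fold above NCI-H1975 (18.9 to 25.1), with a slope of 3.84 ± 0.51 (adjusted p = 6.8e-05, edgeR). Without the 100:0 library the slope was 2.53. The 2 main transcripts rose alike: CDK4-201 had 112, 878, 1386, 1758 and 2013 reads (slope 3.77), and CDK4-202 had 93, 702, 1093, 1265 and 1565 reads (slope 3.59). CDK4-201 held 53.3 to 57.7% of CDK4 reads in the 5 libraries.

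CDK6 (chr7:92604921-92836573, minus strand), the kinase that shares cyclin D and INK4 binding with CDK4, was not called. It had 116, 142, 124, 76 and 76 reads, or 34.2, 32.9, 31.8, 26.6 and 28.3 CPM, and neighbouring intervals overlapped at all 4 steps. The ratio was 0.827 (0.611 to 1.11) and the slope was -0.34 ± 0.20 (adjusted p = 0.18, edgeR). With library totals in place of TMM it was called at -0.75 (adjusted p = 0.0071). CDK6-201 was the main transcript, with 114, 139, 124, 76 and 73 reads. CDK4 reads per CDK6 read went from 1.81 through 11.2, 20.1 and 40.1 to 47.6 (exact permutation p = 0.0167, adjusted 0.0389). CDK4 reads per CDKN2A read changed much less, from 1.07 through 1.62, 1.64 and 1.67 to 1.76 (exact p = 0.0167, adjusted 0.0389). Both ratios were chosen after the data had been seen and restate the slopes of the same counts. Their p-values are therefore no separate support.

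CCND1 (chr11:69641156-69654474, plus strand), cyclin D1, was abundant in both lines. It had 1054, 1357, 1294, 971 and 1008 reads, or 311, 314, 332, 339 and 375 CPM, in order at every step although all neighbouring intervals overlapped. The ratio was 1.21 (1.11 to 1.32), and the slope of 0.26 ± 0.11 was not called (adjusted p = 0.073, edgeR). The call depended on the tool, since limma-voom gave 0.26 with an adjusted p of 0.044, and the sign depended on the scaling, with -0.15 for library totals. CCND1-201 carried 99.7% of its reads.

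CCNE1 (chr19:29811991-29824312, plus strand), cyclin E1, was the one member that fell. It had 41, 53, 23, 21 and 14 reads, or 12.1, 12.3, 5.90, 7.34 and 5.21 CPM, so the 2 libraries richest in NCI-H1975 were the highest. NCI-H1975 stood 2.32-fold above HCC827 (1.24 to 4.61), with a slope of -1.31 ± 0.42 (adjusted p = 0.022, edgeR). The call was lost without the 75:25 library (-1.16, adjusted p = 0.067), without the 0:100 library (-1.35, adjusted p = 0.093) and in the DESeq2 Wald test (adjusted p = 0.082). CCNE1-201 fell with 33, 40, 15, 16 and 13 reads (slope -1.29, adjusted p = 0.035), and CCNE1-202 had 8, 12, 8, 4 and 1. CCND1 reads per CCNE1 read were 25.7, 25.6, 56.3, 46.2 and 72.0, a trend that missed the threshold (exact permutation p = 0.0667, adjusted 0.0667). This ratio too was chosen after the data had been seen.

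RB1 (chr13:48303744-48599436, plus strand), the substrate of these kinases, rose at low counts. It had 21, 30, 55, 53 and 53 reads, or 6.19, 6.95, 14.1, 18.5 and 19.7 CPM. The level was 3.19-fold higher in HCC827 (1.89 to 5.56), and the slope was 1.85 ± 0.35 (adjusted p = 8.8e-04, edgeR). RB1-201, the full coding transcript, had 21, 29, 53, 51 and 47 of these reads (slope 1.65, adjusted p = 0.0011).

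CDKN1B (chr12:12685498-12722369, plus strand), p27KIP1, had 65, 155, 174, 142 and 145 reads, or 19.1, 35.9, 44.7, 49.6 and 53.9 CPM. It rose at every step and was 2.82-fold higher in HCC827 (2.09 to 3.83), with a slope of 1.27 ± 0.25 (adjusted p = 0.0011, edgeR). The mixtures lay 48.2, 73.4 and 87.7% of the way between the pure libraries, ahead of the mass shares of 25, 50 and 75%. Without the 100:0 library the slope was 0.77 (adjusted p = 0.017), and in the comparison of 2 libraries against 2 the call was lost (adjusted p = 0.064). CDKN1B-201 held nearly all the reads, with 64, 149, 169, 139 and 141 (slope 1.21).

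Of the 10 genes, 5 rose with HCC827, 1 fell and 4 were not called, beside 45.8% of all 13492 genes called, 23.5% rising and 22.3% falling. The members were chosen with earlier results of these data known, so the comparisons with all genes in this paragraph are descriptive only. The median slope was 0.76 for the members and -0.03 for all genes. Levels ran in order over the 5 libraries in 6 members, CDKN2A, MTAP, RB1, CCND1, CDK4 and CDKN1B, against 28.5% of all genes. The pure libraries were at least 2-fold apart in 6 members (34.6% of all genes), and HCC827 was at least 8-fold higher in CDKN2A and CDK4 (1.85% of all genes). In the ranking of slopes over 13492 genes, 28 genes stood above CDK4, 102 above CDKN2A, 621 above RB1, 955 above MTAP and 1414 above CDKN1B. Of the 16 member transcripts tested, 10 rose, 1 fell and 5 were not called, where 33.6% of 31758 transcripts were called, 17.5% rising and 16.1% falling. CDKN2A, MTAP, RB1 and CDK4 kept their calls in all 12 alternative fits.

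Changes in isoform usage were not found in the 3 members with several tested transcripts. The unadjusted Simes p in edgeR's isoform test was 0.13 for MTAP (3 transcripts), 0.89 for CDKN2A (4 transcripts) and 0.91 for CDK4 (2 transcripts), and each adjusted p was 1.0. No member therefore had an unadjusted p under 0.05, and edgeR's gene-level F test likewise gave none, with 0.073, 0.89 and 0.76. Of all 7455 genes tested for usage, 0.402% were called.

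CDK4 lies in a stretch of chromosome 12 where several genes had slopes close to its own. Of 56 genes within 500 kb, 21 were tested, and 9 rose and 1 fell (with library totals 7 rose and 6 fell). Among all 13492 genes 45.8% were called, 23.5% rising and 22.3% falling. The median slope of the 21 was 0.30, and 11 of them were not called. TSPAN31, a tetraspanin gene that overlaps CDK4 tail to tail over 1369 exonic bases, had 191, 1349, 2113, 2307 and 2645 reads and a slope of 3.52 ± 0.51 (adjusted p = 1.3e-04, edgeR). Its slope was 2.21 without the 100:0 library, and reads of the shared bases cannot be assigned to one of the genes if strand was not used. OS9, which encodes a lectin of endoplasmic reticulum quality control, had 659, 3612, 5448, 6183 and 7461 reads and a slope of 3.46 ± 0.42 (adjusted p = 3.3e-05). It shares no exon with CDK4.

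The other genes of this stretch were picked out after their values were seen. PIP4K2C, a phosphoinositide kinase gene that starts at 57591174, had 116, 555, 789, 902 and 1083 reads (slope 3.08 ± 0.34). AGAP2, between OS9 and TSPAN31, had 3, 16, 15, 23 and 29 reads (slope 2.80 ± 0.56). Its antisense partner AGAP2-AS1 had 36, 88, 79, 57 and 87 reads (slope 1.19 ± 0.30), a call lost without the 100:0 library (adjusted p = 0.072, edgeR) or the 0:100 library (0.14). The run of steep slopes was not continuous: DTX3, with 26, 35, 43, 21 and 12 reads (slope -0.50 ± 0.48), and B4GALNT1, with 13, 28, 14, 6 and 2 reads (slope -1.96 ± 0.77), lie between PIP4K2C and OS9 and were not called (adjusted p = 0.42 and 0.053, edgeR). On the other side of CDK4 slopes were lower. MARCHF9, a ubiquitin ligase gene, rose by 1.01 ± 0.17 on the log2 scale and METTL1, a tRNA methyltransferase gene, by 0.72 ± 0.21, the latter losing its call without the 0:100 library (0.44, adjusted p = 0.25). TSFM (-0.35 ± 0.16) and CTDSP2 (-0.35 ± 0.14) were not called.

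**Figure D3:**
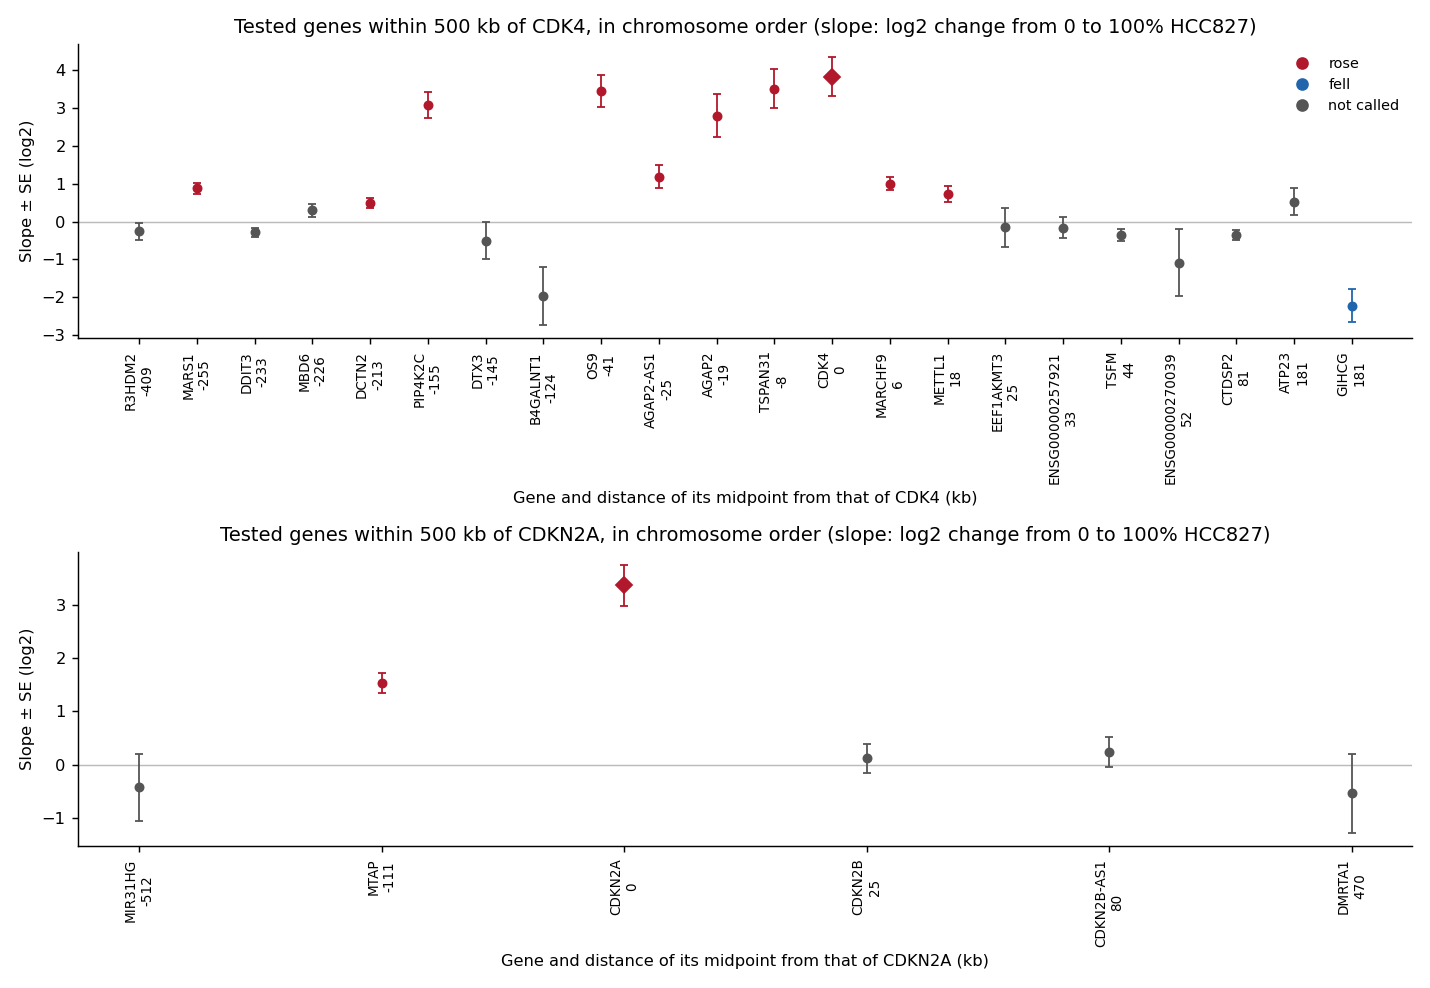
Slope of each tested gene within 500 kb of CDK4 (top) and of CDKN2A (bottom), in log2 from 0 to 100% HCC827 with its SE, ordered along the chromosome and labelled with the distance between gene midpoints in kb. PIP4K2C, OS9, AGAP2, TSPAN31 and CDK4 have slopes of 2.80 to 3.84 with DTX3, B4GALNT1 and AGAP2-AS1 lower between them, while near CDKN2A the next highest slope is that of MTAP at 1.54.

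Near the remaining members few genes were tested, and counts are read beside the 23.5% of all genes that rose and the 22.3% that fell. Near CDK6, 9 of 13 tested genes fell and 0 rose, led by VPS50 (-1.50 ± 0.32), an endosome tethering gene, and ANKIB1 (-1.42 ± 0.16), a ubiquitin ligase gene. Near CDKN1B, 5 of 14 rose and 0 fell, led by MANSC1 (2.27 ± 0.40) and GPRC5A (1.27 ± 0.14), a receptor gene of lung epithelium. Near RB1, ITM2B, a transmembrane protein gene, rose (1.01 ± 0.13). Near CCND1 both tested genes fell, MYEOV (-2.28 ± 0.32) and LTO1 (-0.80 ± 0.30), and LTO1 lost its call without the 100:0, 50:50, 25:75 or 0:100 library (adjusted p of 0.50, 0.056, 0.099 and 0.071, edgeR). LTO1 exons overlap those of CCND1 over 497 bases on the other strand. Near CCNE1, 0 of 4 tested genes were called by the edgeR test.

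The CDK4 promoter is shown because CDK4 had the steepest slope of the members. It covers the 250 bases before the RefSeq start (chr12:57752311-57752560, minus strand, GRCh38.p14, 5′ to 3′), with every E box CACGTG, the word bound by MYC and related factors, in capitals.
CDK4 promoter: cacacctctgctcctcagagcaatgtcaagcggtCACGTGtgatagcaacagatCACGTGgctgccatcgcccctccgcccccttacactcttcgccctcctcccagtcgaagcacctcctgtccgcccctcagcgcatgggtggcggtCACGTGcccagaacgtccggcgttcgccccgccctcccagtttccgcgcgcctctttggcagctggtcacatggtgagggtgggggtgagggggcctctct
The 3 E boxes begin 216, 196 and 101 bases before the start, which is that of CDK4-201. The other main transcript, CDK4-202, starts at 57752447, inside the window. The last 137 bases of the window, with the E box at 101, are therefore also exon sequence of CDK4-202. Of 35116 promoter windows of this length, 6.34% hold at least 1 such word and 28 windows (0.0797%) hold at least 3. The cut of 3 is the count of CDK4 itself, in a gene picked for its slope, so the last share is no test of rarity. Windows were found for 9 of the 10 members, and the E box was found in that of CDK4 only. The RB1 window lies before a start inside the gene (48476450), far from the start of RB1-201 at 48303751, and says nothing of the promoter of that transcript. The window of CDKN2B-AS1 holds 1 E2F-type word, a kind present in 2.79% of windows. A match describes letters and does not mark a bound site.

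The genes whose profiles were most like that of CDKN2A were found by the Euclidean distance between centred log2(CPM + 1) values over the 5 libraries. The closest 5 of 13491 genes were OS9 (distance 0.127), ELF3 (0.158), TBC1D30 (0.209), PIP4K2C (0.209) and GPR35 (0.242). ELF3, an epithelial ETS factor, had 149, 763, 1096, 1230 and 1541 reads. TBC1D30 had 16, 100, 171, 172 and 210 reads, and GPR35, a G protein-coupled receptor gene, had 2, 23, 43, 53 and 65. CDK4 itself stood at rank 69 with a distance of 0.588.

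Called genes were about as frequent in the wider pathway as among all genes. Of 90 genes in 8 lists of G1 control and related functions, 86 were tested, 16 rose, 19 fell and 51 were not called, beside 45.8% of all genes called, 23.5% rising and 22.3% falling, and the median slope was 0.0031 against -0.03 for all genes. Under library totals 8 rose and 35 fell, so the split depends on the scaling. Among the G1 cyclins, CDKs and activators, 0 of 7 rose and 3 fell (median -0.42). These were the 3 subunits of the CDK-activating kinase: CCNH had 123, 126, 86, 71 and 41 reads (slope -1.06 ± 0.25), MNAT1 had 228, 221, 202, 119 and 85 (-0.96 ± 0.18), and CDK7 had 245, 301, 264, 169 and 146 (-0.42 ± 0.15). The call of CCNH was lost without the 0:100 library (adjusted p = 0.051, edgeR), and that of CDK7 when any library except 50:50 was left out (adjusted p = 0.062 to 0.20).

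Among the other CDK inhibitors, 2 of 4 fell and 0 rose (median -0.70), beside 22.3% of all genes falling and 23.5% rising. CDKN1A (p21), an inhibitor of cyclin E and cyclin A complexes, had 343, 299, 255, 139 and 69 reads, or 101, 69.3, 65.4, 48.6 and 25.7 CPM, a fall at every step (slope -1.67 ± 0.21, adjusted p = 4.1e-05, edgeR). CDKN1C (p57) had 231, 206, 177, 124 and 104 reads (slope -0.74 ± 0.19), a call lost without the 100:0 library (-0.38, adjusted p = 0.27). CDKN1A and CDKN1B, inhibitors of the same family, thus had slopes of opposite sign. Of the genes downstream of p14ARF, MDM2, the ligase that it binds, fell by 0.72 ± 0.21 on the log2 scale, and USP7, its deubiquitinase, fell by 0.62 ± 0.15. The call of MDM2 was lost without the 0:100 library (-0.58, adjusted p = 0.11).

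Of the pocket proteins, E2F factors and partners, 2 of 16 rose and 2 fell (median -0.28), and with library totals 1 rose and 7 fell. Under TMM scaling 23.5% of all genes rose and 22.3% fell. E2F7, a repressor among the E2F proteins, had 34, 43, 25, 18 and 3 reads (slope -1.95 ± 0.56) and lost its call without the 0:100 library (-1.08, adjusted p = 0.16, edgeR). RBL1 (p107), the relative of RB1, had 39, 61, 31, 19 and 13 reads (slope -1.40 ± 0.42) and lost its call without the same library (-1.25, adjusted p = 0.11). LIN37, a subunit of the DREAM complex, had 3, 14, 19, 20 and 14 reads (slope 1.89 ± 0.68) and lost its call without the 100:0, 75:25 or 25:75 library (adjusted p of 0.32, 0.066 and 0.11), while its slope was 3.13 without the 0:100 library. RBL1 and RB1 thus had slopes of opposite sign.

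Among E2F target genes of S phase, 6 of 21 rose and 3 fell (median 0.18), a share of calls near the 45.8% of all genes, and with library totals 3 rose and 6 fell. CDT1, which loads the replicative helicase, had 86, 443, 546, 492 and 720 reads, or 25.3, 103, 140, 172 and 268 CPM (slope 2.64 ± 0.35, adjusted p = 6.1e-05, edgeR). ORC1, a subunit of the origin recognition complex, had 10, 19, 37, 37 and 44 reads (slope 2.46 ± 0.40). CCNA2, cyclin A2, had 38, 74, 61, 64 and 66 reads (slope 1.02 ± 0.28) and lost its call without the 100:0 library (adjusted p = 0.088) or the 0:100 library (0.058). Most of the list, 12 genes, was not called.

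Of the ubiquitin ligases of G1 regulators, 2 of 9 rose and 1 fell (median -0.05), and with library totals 0 rose and 4 fell. The shares over all genes with TMM scaling were 23.5% rising and 22.3% falling. CUL1, the scaffold of SCF ligases, had 141, 175, 143, 102 and 56 reads (slope -0.78 ± 0.24), a call lost without the 0:100 library (-0.33, adjusted p = 0.32, edgeR). AMBRA1, which directs D-type cyclins to degradation, had 65, 76, 70, 65 and 82 reads (slope 0.71 ± 0.26), and its call was lost without the 75:25, 25:75 or 0:100 library (adjusted p of 0.11, 0.066 and 0.55), with a slope of 1.10 without the 100:0 library. DDB1, its adaptor, had 424, 598, 548, 451 and 468 reads (slope 0.46 ± 0.12), a call lost without the 0:100 library (adjusted p = 0.071) and with library totals, where the slope was 0.05.

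Of the known regulators of the INK4 locus, 1 of 13 rose and 3 fell (median 0.13), beside 23.5% of all genes rising and 22.3% falling. ID1, which opposes ETS activators of the p16INK4a promoter, had 333, 640, 744, 795 and 758 reads (slope 1.57 ± 0.16, adjusted p = 1.2e-05, edgeR). ETS2, such an activator, had 177, 229, 180, 101 and 60 reads (slope -1.12 ± 0.23, and -0.72 without the 0:100 library). SUZ12, a subunit of the Polycomb complex that silences the locus, had 142, 205, 142, 84 and 65 reads (slope -0.89 ± 0.22), a call lost without the 0:100 library (adjusted p = 0.067).

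In the methionine salvage, polyamine and PRMT5 genes around MTAP, 4 of 12 rose and 3 fell (median 0.13), and with library totals 2 rose and 5 fell. Over all genes, 23.5% rose and 22.3% fell under TMM scaling. APIP, an enzyme downstream of MTAP in methionine salvage, was at 36, 29, 16, 4 and 1 reads (slope -3.75 ± 0.62, adjusted p = 3.3e-04, edgeR). PRMT5, the arginine methyltransferase that methylthioadenosine inhibits, had 101, 137, 192, 166 and 173 reads (slope 1.24 ± 0.19). WDR77, its partner, had 64, 120, 106, 122 and 137 reads (slope 1.38 ± 0.22). MTAP and APIP, enzymes of a single pathway, therefore ran in opposite directions, and both kept their calls in every alternative fit that tested them.

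**Figure D4:**
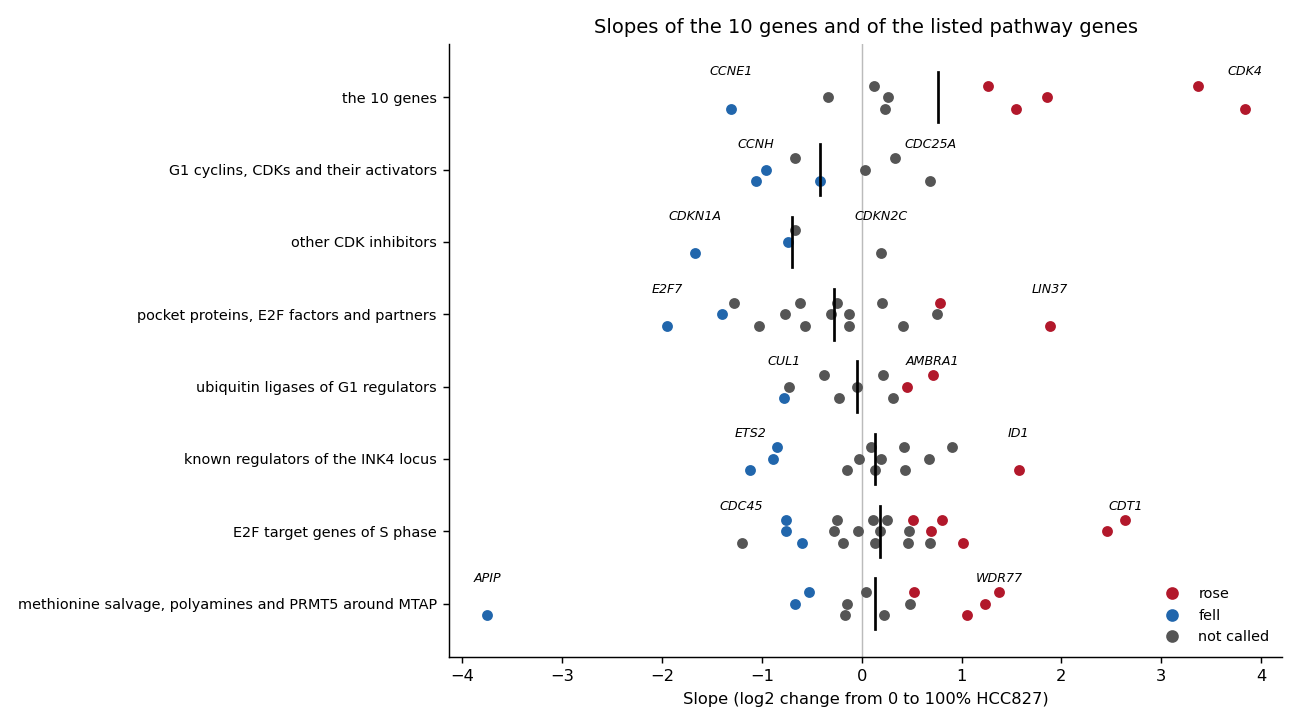
Slope of every tested gene in 7 of the 8 pathway lists and of the 10 members (log2 change from 0 to 100% HCC827), coloured by call in the edgeR test, with a black bar at each list's median. Medians of the lists lie between -0.70 for the other CDK inhibitors and 0.18 for the E2F targets, beside 0.76 for the members.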

How the data were processed

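Poly(A) RNA was sequenced as PCR-amplified cDNA on a nanopore PromethION, per the labels' protocols. The authors deposited 1 table of estimated counts of reads per transcript for each library, unscaled, and 2 values that were not whole (48.995 and 158.005) were rounded. GRCh38, minimap2 2.24 and Salmon 1.9.0 are named in the submitters' processing notes, and the annotation release is not given in the sources used here. Copies of 161 repeated identifiers were summed, and 98.6% of human reads were paired with GENCODE v44 genes. The deposited length of 6 of the 76 member transcripts with reads differs from v44. Reads carry no molecular identifiers, so intervals cover counting error only. Slopes on the HCC827 mass fraction were fitted with edgeR 4.0.16 (R 4.3.3) on genes with at least 10 reads in at least 2 libraries, with TMM scaling and Benjamini-Hochberg adjustment over all genes at 0.05. Ratios of pure libraries carry exact conditional binomial 95% intervals, with a floor of 3 reads. Alternatives covered scaling, filter, limma 3.58.1, DESeq2 1.42.0, 2 libraries against 2, and leaving out each library. Members and lists were chosen with earlier results of these data known. Named were all members, their transcripts with most reads, up to 3 called genes per list and up to 2 called neighbours per member with the largest absolute slope, and every tested neighbour of CDKN2A. Some items under these rules are not reported here.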

Additional observations from a re-analysis of the deposited data

How the results depend on the processing

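No paired analysis was possible because each ratio had 1 library and the labels give no replicate that links libraries. The count of 6175 called genes became 2291 with 2 libraries against 2 and ran from 4067 (without 0:100) to 5860 when a library was left out. The 10660 called transcripts became 6072 in the DESeq2 Wald test, 4382 with 2 against 2, and 6290 to 10175 when a library was left out. The single member gene and single member transcript that fell each became 2 with library totals, 0 in DESeq2, 0 with 2 against 2, and 0 to 1 when a library was left out. List genes that rose went from 16 to 8 and those that fell from 19 to 35 with library totals, which moved the median slope of all genes from -0.03 to -0.44. Leaving out a library gave 12 to 16 list genes rising and 8 (without 0:100) to 20 falling. Neighbours that fell went from 12 to 20 with library totals and to 20 within 1 Mb. The p14ARF trend ran from -0.052 (without 75:25; -0.033 without 25:75) to 2.53 points. With library totals the slopes of CDKN2B (-0.29), CDKN2B-AS1 (-0.17) and CCND1 (-0.15) changed sign. With a library left out, slopes ran from -0.26 to 0.26 for CDKN2B, -0.17 to 0.47 for CDKN2B-AS1, -0.74 to 0.22 for MIR31HG and -1.28 to 0.14 for DMRTA1. The cause was not tested. Slopes of called members ranged over the 12 alternatives from 2.29 to 4.20 for CDKN2A, 2.48 to 4.84 for CDK4, 1.14 to 1.903 for MTAP and 1.45 to 2.37 for RB1. The comparison of 2 against 2 alone ended the calls of MNAT1, CDT1, TSPAN31, VPS50, AGAP2, MARCHF9 and CDKN1B. With 21 to 65 reads in the 100:0 library, RB1, CCNE1, CDKN2B and CDKN1B are limited by depth.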

Other observations

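High slopes on chromosome 12 were not limited to the surroundings of CDK4, a pattern picked out after the values were seen. Of 696 tested genes on that chromosome, 24 (3.45%) had a slope of at least 2.5, against 2.2% of genes on the other chromosomes together. The share was higher than on chromosome 12 among mitochondrial genes (16.2%) and on chromosomes 21 (3.92%), 8 (3.83%), X (3.52%) and 13 (3.5%), so it does not set chromosome 12 apart. They include TBK1 (2.52 ± 0.31), a kinase of innate immune signalling, RASSF3-DT (2.61 ± 0.70) and TBC1D30 (3.01 ± 0.39), which start at 64.5 to 64.8 Mb, beyond the 57.6 to 57.7 Mb where PIP4K2C, OS9, AGAP2, TSPAN31 and CDK4 start. TBC1D30 is also among the 5 genes closest to CDKN2A in profile. AQP5, a water channel of glandular epithelium, at 50.0 Mb (3.50 ± 0.59), HOXC11 at 54.0 Mb (3.73 ± 0.67) and KRT4 at 52.8 Mb (3.71 ± 0.60) are others of the 24.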
